A study of Mus musculus with 35 samples.

Results

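The genes described here encode enzymes that modify the PERIOD and CRYPTOCHROME proteins of the circadian clock: the casein kinases Csnk1d, Csnk1e and Csnk1a1, the kinase Gsk3b, the phosphatase catalytic subunits Ppp1ca and Ppp1cb, and the F-box genes Btrc, Fbxw11 and Fbxl21. These 9 genes were taken by name from the 49568 gene names of the count tables. RNA levels were measured by polyA RNA sequencing of a dissected block of hypothalamus in 35 libraries from male mice of strain B6/J, and all tissue was taken at Zeitgeber time 16, that is 16 h after lights-on. The groups were control mice with free access to food (n = 10), control mice without food for the preceding 16 h (n = 10), fasted mice labelled Per2 ko (n = 5), and mice labelled PER2-S662D, either fed (n = 5) or fasted (n = 5). The labels give neither the age of the mice nor how the alleles were made, and they name no Cre line or transgene promoter. All labelled Per2 ko mice were fasted, so that genotype has no fed group. The labels do not say that every library came from a separate mouse, and p-values measure the spread between these libraries, which may be technical in part.

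PER proteins build up, enter the nucleus with CRY proteins and repress their own transcription until they are degraded, and the timing of the cycle depends on how fast that happens. Casein kinases 1 delta and epsilon bind PER2 and phosphorylate it at several places with opposing effects on its stability. The S662D allele replaces a serine at one such place with an aspartate, whose negative charge resembles a phosphate. Phosphorylated PER2 is bound by the F-box proteins encoded by Btrc and Fbxw11, which present it to a ubiquitin ligase, and protein phosphatase 1 removes phosphates from PER2. The F-box protein encoded by Fbxl21 acts on CRY proteins. All of this acts on proteins, and the measurements here are of messenger RNA only.

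Promoter sequences were looked up for all 9 genes in the RefSeq promoter table (build GRCm38.p6, windows of 300 bases around a transcription start), and windows of 5 of them were used: Csnk1e, Gsk3b, Fbxw11, Fbxl21 and Ppp1cb, with 8 windows in all, of which 4 are largely overlapping windows of Csnk1e, so that counts of 8 stand for 5 genes. Those of Fbxl21 and Gsk3b are shown because these genes had the largest differences between fed S662D and fed control libraries. The first lies at chr13:56522222-56522521 on the plus strand and the second at chr16:38088751-38089050 on the plus strand. Capitals mark GC-boxes (GGGCGG or its complement CCGCCC) in Fbxl21 and CCAAT-boxes (CCAAT or its complement ATTGG) in Gsk3b.
Fbxl21: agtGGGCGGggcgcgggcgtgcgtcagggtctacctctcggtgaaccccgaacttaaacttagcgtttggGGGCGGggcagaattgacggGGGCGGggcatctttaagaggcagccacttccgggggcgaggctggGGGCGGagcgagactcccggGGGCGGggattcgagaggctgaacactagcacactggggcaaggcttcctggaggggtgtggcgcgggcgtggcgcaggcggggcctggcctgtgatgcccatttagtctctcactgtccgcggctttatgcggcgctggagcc
Gsk3b: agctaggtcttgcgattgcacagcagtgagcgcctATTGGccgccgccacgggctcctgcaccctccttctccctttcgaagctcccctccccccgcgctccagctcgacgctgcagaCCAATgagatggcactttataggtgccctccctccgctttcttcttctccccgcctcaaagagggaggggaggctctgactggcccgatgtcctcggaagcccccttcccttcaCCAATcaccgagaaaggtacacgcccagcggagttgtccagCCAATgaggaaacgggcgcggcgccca
The Fbxl21 window held 5 GC-boxes and no CCAAT-box, and the Gsk3b window held 4 CCAAT-boxes and no GC-box. Among all 32851 windows of the table, 35.7% held a GC-box and 37.4% a CCAAT-box on either strand. Of the 8 windows used, 6 held a GC-box (those of Csnk1e, Fbxl21 and Ppp1cb) and 1 a CCAAT-box (Gsk3b). The Fbxl21 and Gsk3b windows were 67.7% and 63% G and C. The median over all windows, which were not matched for this, was 52.7%. The E-box CACGTG, through which CLOCK and BMAL1 act, occurred in 0 of the 8 windows and in 7.15% of all windows. The E-box-like CACGTT occurred in 0 of the 8 and in 4.68% of all, the D-box TTATGTAA in 0 and 0.938%, and the cAMP response element TGACGTCA in 0 and 1.79%. The nuclear receptor half-site AGGTCA was found in 1 of the 8, that of Ppp1cb, against 16.3% of all windows. A match is a run of letters and not a binding site, and its absence from so short a window describes that window alone.

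The libraries held between 17959586 and 37027342 counts, with the deepest in the S662D groups, and mitochondrial genes took 6.24% to 9.08% of counts. All 9 genes passed the filter on low counts, which kept 18063 genes. The 11 defining markers of hypothalamus had counts in every library, and their summed level was 521 to 753 CPM (counts scaled to a common library size). Choroid plexus markers, which belong to neighbouring tissue, ranged from 18.2 to 1533 CPM over the libraries. Per2 RNA lay at 28.2 to 33.4 CPM in the labelled knockout and at 26.1 to 33.1 CPM in fasted controls, so it was not lower there. A count over the whole gene need not fall where an allele leaves a transcript, so this neither bears out nor contradicts the label, and the group is called by its label throughout. The file headers give library numbers, and these form separate ranges for control replicates 1 to 5, the labelled knockout, control replicates 6 to 10, and S662D. For S662D and the labelled knockout, effects of genotype and of library range cannot be told apart. In addition, the numbers of S662D replicates 2, 3 and 4, fed and fasted, end in 1 more digit than the others, for a reason not stated. For the genes whose differences passed a test or came near it, values are also given by control set or by that digit.

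All 9 transcripts had counts in every library. Per kilobase of exon, Ppp1ca was the most abundant at 99.1 ± 7.14 CPM per kb (SD, n = 35), followed by Fbxw11 at 36.4 ± 2.06. Csnk1d followed at 28.6 ± 1.06 CPM per kb, a narrow spread. Csnk1a1 (23.7 ± 1.04), Ppp1cb (23.03 ± 1.09), Gsk3b (22.5 ± 1.89) and Btrc (22.4 ± 1.08) formed a group whose neighbours did not differ beyond their spread. Csnk1e lay below them at 14.9 ± 0.621 CPM per kb, and its highest library, at 16.3, was below the lowest of Btrc, at 20.4. Fbxl21 was the least abundant at 1.98 ± 0.243 CPM per kb. It was read from 138 to 418 counts per library, against at least 1653 for each of the others. Within pairs of related enzymes, the order of levels per kilobase was the same in all 35 libraries. Csnk1d stood 1.77 to 2.08 times above Csnk1e, Ppp1ca 3.16 to 5.12 times above Ppp1cb, and Btrc at 0.575 to 0.665 of Fbxw11. For the phosphatases that order rests on dividing by exon length. In CPM, Ppp1cb was higher in every library, at 233 to 291 against 116 to 154 for Ppp1ca. Csnk1a1 likewise lay above Csnk1d in CPM, at 232 to 280 against 133 to 153. The phosphatase levels carry a counting limit, since counting ignored strand and kept every alignment: 16.1% of the exon bases of Ppp1ca lie under the opposite-strand gene Rad9a, and 17.5% of those of Ppp1cb under Gm43312.

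**Figure D1:**
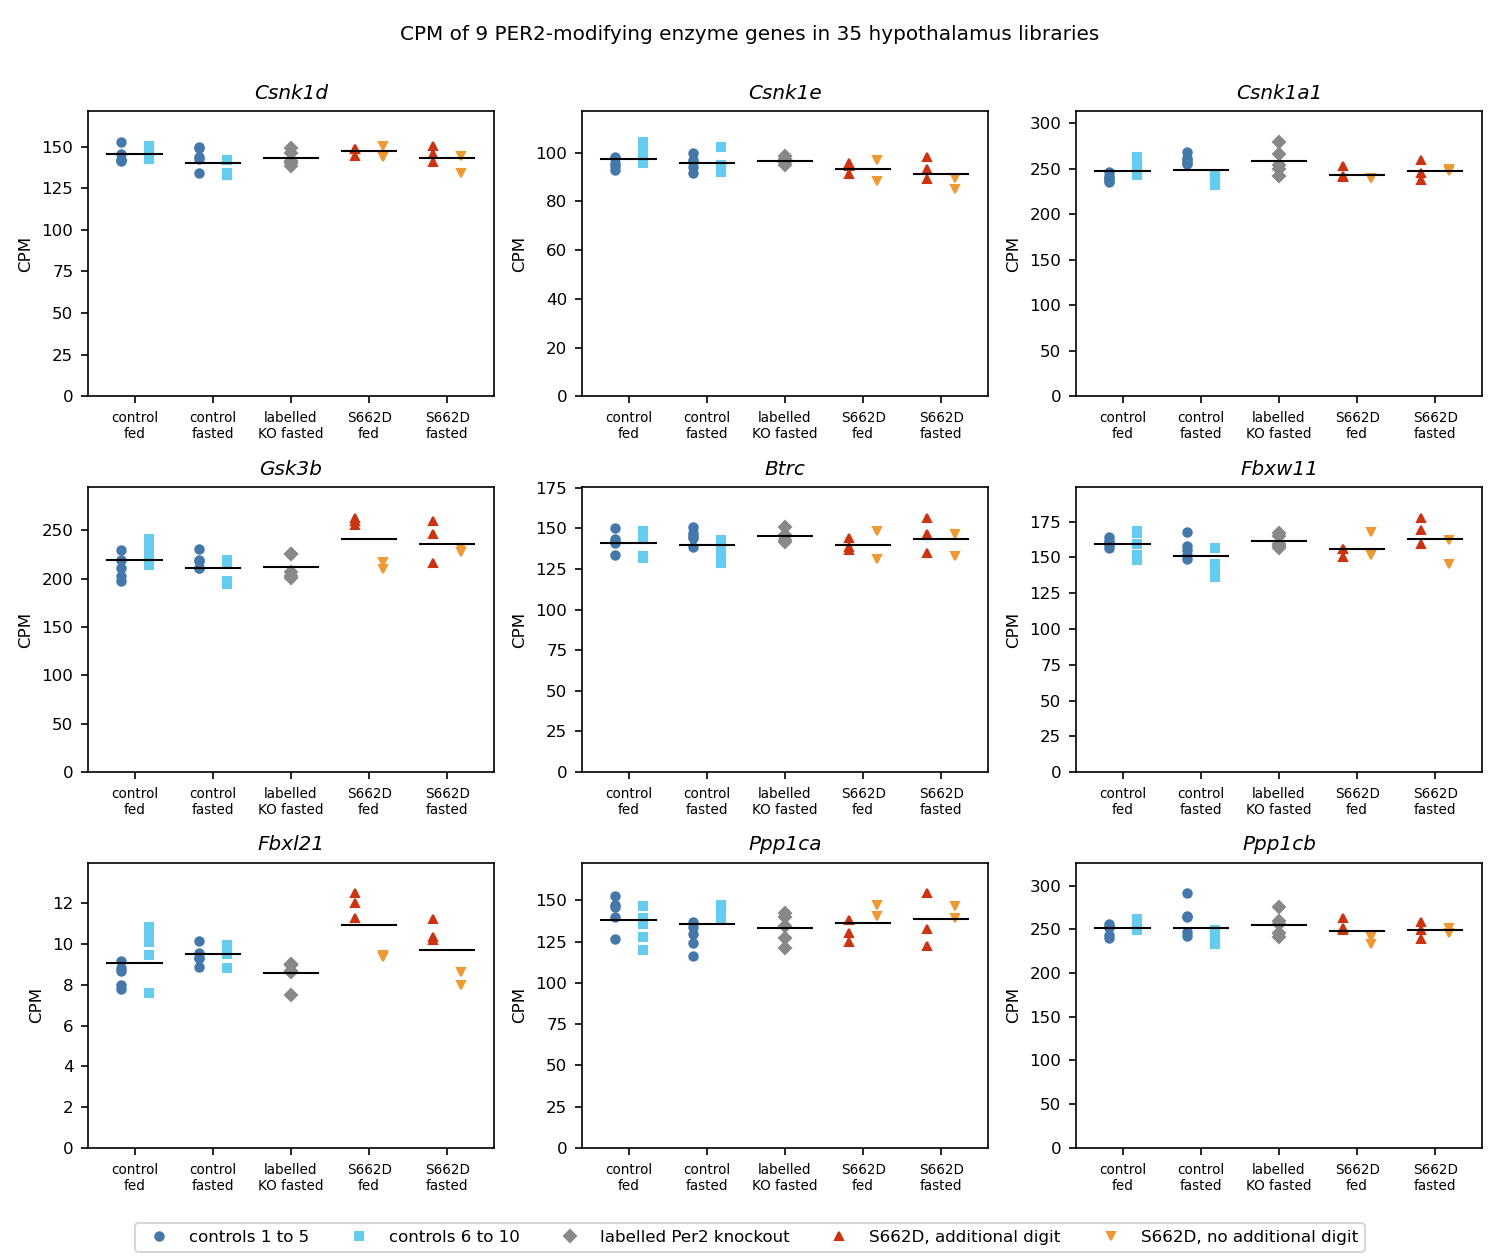
Level of each of the 9 genes in CPM (vertical axis, from 0) in 35 libraries grouped by genotype and feeding state (horizontal axis). Each symbol is 1 library, black bars are group means, and colours mark control sets and the additional digit of S662D libraries. The S662D groups overlap the control groups for all 9 genes. In fed S662D, the 3 libraries with the additional digit are the highest of the group for Gsk3b (255 to 263 CPM) and Fbxl21 (11.3 to 12.5 CPM).

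Casein kinase 1 delta and epsilon, the main PER2 kinases, were the steadiest of the genes. Csnk1d (chr11:120961749-120991330, minus strand, mm10) ranged in fed controls from 141 to 153 CPM with a median of 144, and in fasted controls from 133 to 150 with a median of 142. The libraries labelled Per2 knockout were at 149, 138, 146, 141 and 140.5 CPM, fed S662D at 150, 145, 149, 149 and 144, and fasted S662D at 134, 141, 150, 145 and 144. All groups overlapped, and over all libraries the coefficient of variation was 3.71%. Csnk1e (chr15:79417856-79443919, minus strand) ranged in fed controls from 92.8 to 104 CPM with a median of 97.6, and in fasted controls from 91.7 to 102 with a median of 94.8. The labelled knockout libraries were at 96.2, 96.0, 98.6, 94.8 and 97.4 CPM, within the control range. Fed S662D libraries were at 96.8, 94.4, 91.3, 95.8 and 88.2 CPM, and fasted ones at 84.9, 89.3, 93.2, 98.4 and 89.5, so that both S662D groups overlapped the controls from below. The Csnk1d to Csnk1e ratio per kilobase was 1.90 in fed controls (1.81 to 2.00) and 2.01 in fed S662D (1.95 to 2.08), with overlapping ranges. In fasted mice it was 1.87 in controls (1.77 to 2.00), 1.89 in the labelled knockout (1.84 to 1.97) and 2.01 in S662D (1.88 to 2.06). These ratios are a description with no test.

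Casein kinase 1 alpha, encoded by Csnk1a1 (chr18:61555274-61590061, plus strand), acts in Wnt signalling as well as on PER proteins. It ranged in fed controls from 235 to 263 CPM with a median of 245, and in fasted controls from 232 to 268 with a median of 249. Libraries of the labelled knockout were at 242, 280, 250, 266 and 254 CPM, the highest of them above every control. S662D libraries were at 239, 241, 253, 241 and 239 CPM when fed and at 247, 237, 259, 246 and 250 when fasted. All 5 groups overlapped.

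Glycogen synthase kinase 3 beta, encoded by Gsk3b (chr16:38089001-38246084, plus strand), phosphorylates PER2, CRY2 and REV-ERB alpha and is a major target of insulin signalling. It ranged in fed controls from 197 to 241 CPM with a median of 219, and in fasted controls from 195 to 231 with a median of 213. In the labelled knockout it was at 203, 226, 201, 226 and 207 CPM. Fed S662D libraries were at 218, 260, 255, 263 and 210 CPM and fasted ones at 227, 216, 260, 247 and 232. Replicates 2, 3 and 4 of fed S662D lay above every fed control, whereas replicates 1 and 5 lay inside the control range.

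Ppp1ca and Ppp1cb encode the alpha and beta catalytic subunits of protein phosphatase 1. Ppp1ca (chr19:4192158-4195419, plus strand) ranged in fed controls from 120 to 153 CPM with a median of 139.8, and in fasted controls from 116 to 147 with a median of 138. The labelled knockout libraries were at 142, 121, 140.0, 127 and 134 CPM, fed S662D at 141, 130.4, 138, 125 and 147, and fasted S662D at 146, 154, 123, 132 and 139. Ppp1cb (chr5:32458843-32517433, plus strand) ranged in fed controls from 241 to 262 CPM with a median of 253, and in fasted controls from 233 to 291 with a median of 247. Values in the labelled knockout were 259, 256, 241, 275 and 246 CPM, fed S662D at 233, 263, 252, 249 and 241, and fasted S662D at 252, 239, 259, 249.8 and 245. For both subunits all groups overlapped.

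The beta-TrCP genes Btrc and Fbxw11 encode closely related F-box proteins that also act on beta-catenin and on inhibitors of NF-kappa-B. Btrc (chr19:45363734-45533341, plus strand) ranged in fed controls from 132 to 149.9 CPM with a median of 143, and in fasted controls from 129 to 151 with a median of 141. The labelled knockout libraries were at 143, 142, 151, 146 and 145 CPM, fed S662D at 148, 139, 136, 144 and 131, and fasted S662D at 133, 135, 157, 146 and 147. The groups overlapped throughout. Fbxw11 (chr11:32642724-32746816, plus strand) ranged in fed controls from 148 to 169 CPM with a median of 160.3, and in fasted controls from 136 to 168 with a median of 150.3. The labelled knockout libraries were at 165, 159, 158, 167 and 157 CPM, fed S662D at 168, 150.0, 156, 156 and 151, and fasted S662D at 145, 159, 178, 169 and 162. Fasted S662D replicates 3 and 4 lay above every fasted control.

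Fbxl21 (chr13:56522472-56537898, plus strand), whose protein ubiquitinates CRY, was the most variable of the genes, with a coefficient of variation of 12.3%. It ranged in fed controls from 7.60 to 10.8 CPM with a median of 8.99, and in fasted controls from 8.80 to 10.2 with a median of 9.53. In labelled knockout libraries it was at 8.69, 9.04, 8.63, 8.99 and 7.49 CPM. Fed S662D libraries were at 9.46, 11.3, 12.5, 12.005 and 9.35 CPM, and fasted ones at 8.64, 10.2, 10.3, 11.2 and 8.00. In fed S662D, replicates 2, 3 and 4 again lay above every control and replicates 1 and 5 inside the control range.

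The first comparison asked what a 16-h fast does to these transcripts. In controls, 0 of the 9 genes passed the test (edgeR's quasi-likelihood test, Benjamini-Hochberg adjusted p below 0.05 over 18063 genes), against 3.88% of all genes tested, 1 had an unadjusted p below 0.05, and DESeq2 also called 0. That gene was Fbxw11, with a log2 fold change of -0.08 (SE 0.04, edgeR adjusted p = 0.254). The fold changes of the 9 ran from -0.08 to 0.07 on the log2 scale, and the median of their absolute values was 0.03 against 0.06 over all genes. The genes compared were not matched to the 9 in level. Pooled controls also combine sets whose fasting responses differed for some genes, as described below. The 95% intervals of Csnk1d (-0.11 to 0.01), Csnk1e (-0.09 to 0.03) and Csnk1a1 (-0.05 to 0.07) all include 0. In bulk tissue, fewer cells of a type and less RNA per cell cannot be told apart. In S662D mice, fasting called 0 of the 9 genes against 2.64% of all genes, and 0 had an unadjusted p below 0.05 (DESeq2 called 0). Fbxl21 had the largest estimate, -0.18 (SE 0.09, interval -0.37 to 0.01, edgeR adjusted p = 0.378). The difference between the fasting responses of S662D and control mice called 0 of the 9 genes and 0% of all genes, with 2 of the 9 at an unadjusted p below 0.05 and 0 called by DESeq2. These were Fbxw11, with a difference of 0.14 (SE 0.06), and Fbxl21, with -0.25 (SE 0.12), with edgeR adjusted p of 0.766 and 0.771.

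**Figure D2:**
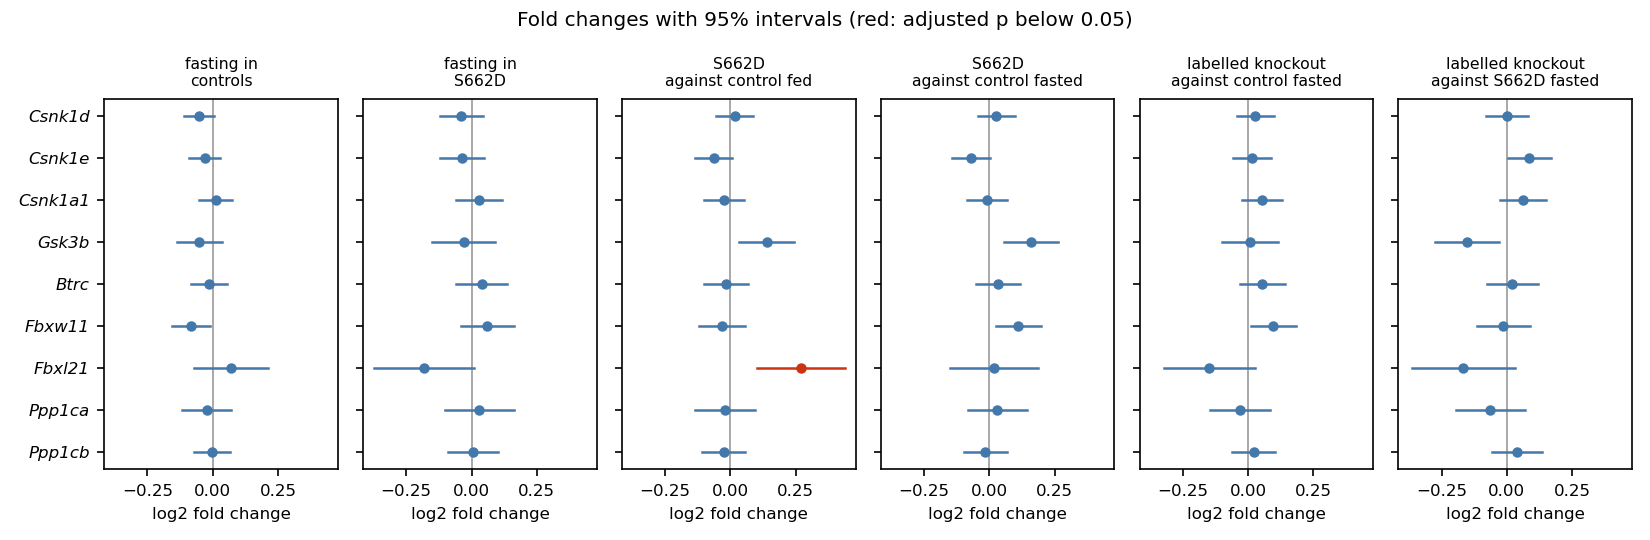
Log2 fold change (horizontal axis) of each of the 9 genes (vertical axis) in 6 comparisons, with lines for the 95% interval. Red marks an adjusted p below 0.05, which only Fbxl21 reached, at 0.27 in fed S662D against fed control mice.

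S662D mice were compared with controls within each feeding state to see whether the mutant clock protein is accompanied by other levels of its modifying enzymes. In fed mice, 1 of the 9 genes passed, Fbxl21, against 4.69% of all genes, so the share among 9 genes is not a result about the group. That background was itself unsteady: 16.9% of genes were called with the digit-bearing S662D libraries alone, 0.0854% with those lacking the digit, 0.127% with the digit fitted, 0.185% with control set 6 to 10 alone and 0.362% without fed S662D replicate 4. Fbxl21 was higher in S662D at 10.9 ± 1.44 CPM (SD, n = 5) than in controls at 9.07 ± 1.11 (n = 10), a log2 fold change of 0.27 (SE 0.08, interval 0.10 to 0.44, edgeR adjusted p = 0.0488). The fed groups overlapped. The median log2 fold change of the 9 genes was -0.02, against -0.01 over all genes. Gsk3b was next, at 241 ± 25.3 CPM against 219 ± 13.3 (log2 fold change 0.14, SE 0.05, edgeR adjusted p = 0.107). In fasted mice, 0 of the 9 genes passed against 5.57% of all genes, and 2 had an unadjusted p below 0.05. DESeq2 called 1 of the 9, Gsk3b, and 9.51% of all genes. The share of all genes called in fasted mice was 17.1% with the digit-bearing libraries alone and 0.111% with the digit fitted. Gsk3b stood at 236 ± 16.9 CPM in S662D against 211 ± 11.98 in controls (log2 fold change 0.16, SE 0.05, edgeR adjusted p = 0.0564), and Fbxw11 at 163 ± 12.1 against 151 ± 9.17 (0.11, SE 0.04, edgeR adjusted p = 0.122). Fbxl21 gave 0.02 in fasted mice (SE 0.08, interval -0.15 to 0.19). Csnk1e had estimates of -0.06 (fed) and -0.07 (fasted), with edgeR adjusted p of 0.304 and 0.255.

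The Fbxl21 and Gsk3b differences moved with the additional digit. Fed S662D libraries with the digit had Fbxl21 at 11.9 ± 0.604 CPM (n = 3), and those without it at 9.35 and 9.46, a pair inside the fed control range. In fasted S662D the same split gave 10.6 ± 0.561 CPM (n = 3) against 8.00 and 8.64. For Gsk3b, fed S662D libraries with the digit were at 259 ± 4.10 CPM (n = 3) and those without it at 210 and 218, and in the fasted state 241 ± 22.1 (n = 3) against 227 and 232. The fasted libraries with the digit spanned those without it for Gsk3b, from 216 to 260 CPM. With that digit fitted as a covariate, the fed log2 fold change of Fbxl21 was 0.05 (edgeR adjusted p = 0.956) and that of Gsk3b 0.03 (0.957). In fasted S662D against control, Gsk3b did not pass with the digit fitted, nor against either control set alone. Over 26 alternative fits its fasted log2 fold change was 0.06 to 0.21, and it passed in 5. Against control set 1 to 5 alone, fed S662D had Fbxl21 higher by 0.37 (edgeR adjusted p = 0.0169) and Gsk3b by 0.19 (0.0436), with 9.79% of all genes called, and against control set 6 to 10 alone by 0.18 (0.487) and 0.09 (0.558). The Fbxl21 call also rested on single libraries: without any 1 of fed control replicates 1, 2, 3, 4, 5, 6 or 8 the edgeR adjusted p lay at 0.0523 to 0.0859, and without fed S662D replicate 2, 3 or 4 at 0.160, 0.206 or 0.228. Markers of other cells were summed over the same split: oligodendrocyte markers (5 of 5 detected in every library) summed to 7006 to 7473 CPM in fed S662D libraries with the digit, 8171 and 8385 without it, and 7059 to 9473 in fed controls. Endothelial markers (5 of 5) summed to 194 to 202 CPM with the digit, 170 and 172 without it, and 154 to 189 in fed controls. Thalamus markers summed to 1060 to 1276 CPM with the digit and 953 to 1025 without it in fed S662D, and to 1136 to 1178 and 1044 to 1050 in fasted S662D. In fasted S662D, oligodendrocyte sums overlapped (8431 to 8977 CPM with the digit, 8570 to 9061 without it), as did endothelial sums (169 to 206 and 146 to 171). Microglia sums in fed S662D were 136 to 151 CPM with the digit and 128 to 134 without it (fed controls, 127 to 152). In fasted S662D they were 132 to 141 and 114 to 125. Hypothalamus and choroid plexus sums overlapped in fed S662D, and both were lower with the digit in fasted S662D. There the hypothalamus sums were 530 to 705 against 718 to 731 CPM. Choroid plexus sums were 18.2 to 34.9 against 46.8 to 291 CPM. Suprachiasmatic nucleus, neuron, astrocyte, pituitary, and cortex and striatum sums overlapped in both states. The part of all these sums in the Fbxl21 and Gsk3b values was not tested.

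The libraries labelled Per2 knockout were compared with both fasted groups. Against fasted controls, 0 of the 9 genes passed, against 0.0277% of all genes, 1 had an unadjusted p below 0.05, and DESeq2 called 0. That gene was Fbxw11, at 161 ± 4.52 CPM against 151 ± 9.17 (log2 fold change 0.10, SE 0.04, edgeR adjusted p = 0.817). Csnk1d (0.03, interval -0.04 to 0.10) and Csnk1e (0.02, interval -0.06 to 0.09) had narrow intervals around 0. Against fasted S662D, 0 of the 9 genes passed, against 7.34% of all genes, 2 had an unadjusted p below 0.05, and DESeq2 called 0. These were Gsk3b, lower in the labelled knockout by -0.15 (SE 0.06, edgeR adjusted p = 0.113), and Csnk1e, with 0.09 (SE 0.04, 0.207). With the 3 digit-bearing S662D libraries alone, Gsk3b (-0.18, edgeR adjusted p = 0.0339) and Fbxl21 (-0.30, 0.0282) passed, in a fit that called 16.2% of all genes.

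The controls themselves held a difference that the pooled comparison hides. Control sets 1 to 5 and 6 to 10 carry the same labels, yet the fasting differences of Csnk1a1 had opposite signs in them. Whether the feeding labels hold for every library of both sets could not be settled from the labels, and that bears on every pooled control comparison. Per1, the substrate gene that rose on fasting, was higher in the fasted libraries of both sets, by 0.41 in set 1 to 5 (edgeR adjusted p = 0.00149) and 0.30 in set 6 to 10 (0.0505), and the fasting responses of the 5 substrate genes differed between sets by -0.13 to 0.01, with 0 called by edgeR and 0 at an unadjusted p below 0.05. In set 1 to 5 Csnk1a1 stood at 240 ± 4.19 CPM fed (235 to 246, n = 5) and 260 ± 5.25 fasted (255 to 268), with no overlap. In set 6 to 10 Csnk1a1 stood at 254 ± 7.64 fed (244 to 263) and 238 ± 3.53 fasted (232 to 242), again with no overlap and in the other direction. Ppp1ca moved the opposite way, from 143 ± 9.87 to 128 ± 8.22 CPM in set 1 to 5 and from 134 ± 10.3 to 144 ± 3.21 in set 6 to 10. Fitted within 1 set, neither change passed: Csnk1a1 had log2 fold changes of 0.11 (edgeR adjusted p = 0.0910) and -0.09 (0.226), and Ppp1ca of -0.16 (0.108) and 0.11 (0.346). The difference of the fasting responses between sets was -0.21 for Csnk1a1 (log2, SE 0.05, edgeR adjusted p = 0.0111) and 0.26 for Ppp1ca (SE 0.08, 0.0370). This comparison was added after the values had been seen. It called 2 of the 9 genes, against 10.6% of all genes, and 4 of the 9 had an unadjusted p below 0.05. DESeq2 called 2 of the 9, and 16.6% of all genes. The other estimates were all negative, from -0.19 for Gsk3b to -0.06 for Csnk1e. Csnk1a1 passed without each control library in turn (20 of 20), whereas Ppp1ca lost its call without fed control replicate 3, 4, 5, 7 or 9 or fasted control replicate 3, 5, 6, 7 or 9 (edgeR adjusted p 0.0521 to 0.101). Between the sets within a feeding state, fed controls called 0 of the 9 genes against 0% of all genes. Of the 9, 1 had an unadjusted p below 0.05 there, and DESeq2 called 0. Fasted controls called 1, Csnk1a1, lower in set 6 to 10 by -0.13 (SE 0.04, edgeR adjusted p = 0.0340), against 6.02% of all genes. For fasted controls DESeq2 called 3 of the 9, and 12.4% of all genes. The Csnk1a1 call in fasted controls was lost without fasted control replicate 3, 5, 6, 7, 8 or 9 (edgeR adjusted p 0.0565 to 0.124).

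**Figure D3:**
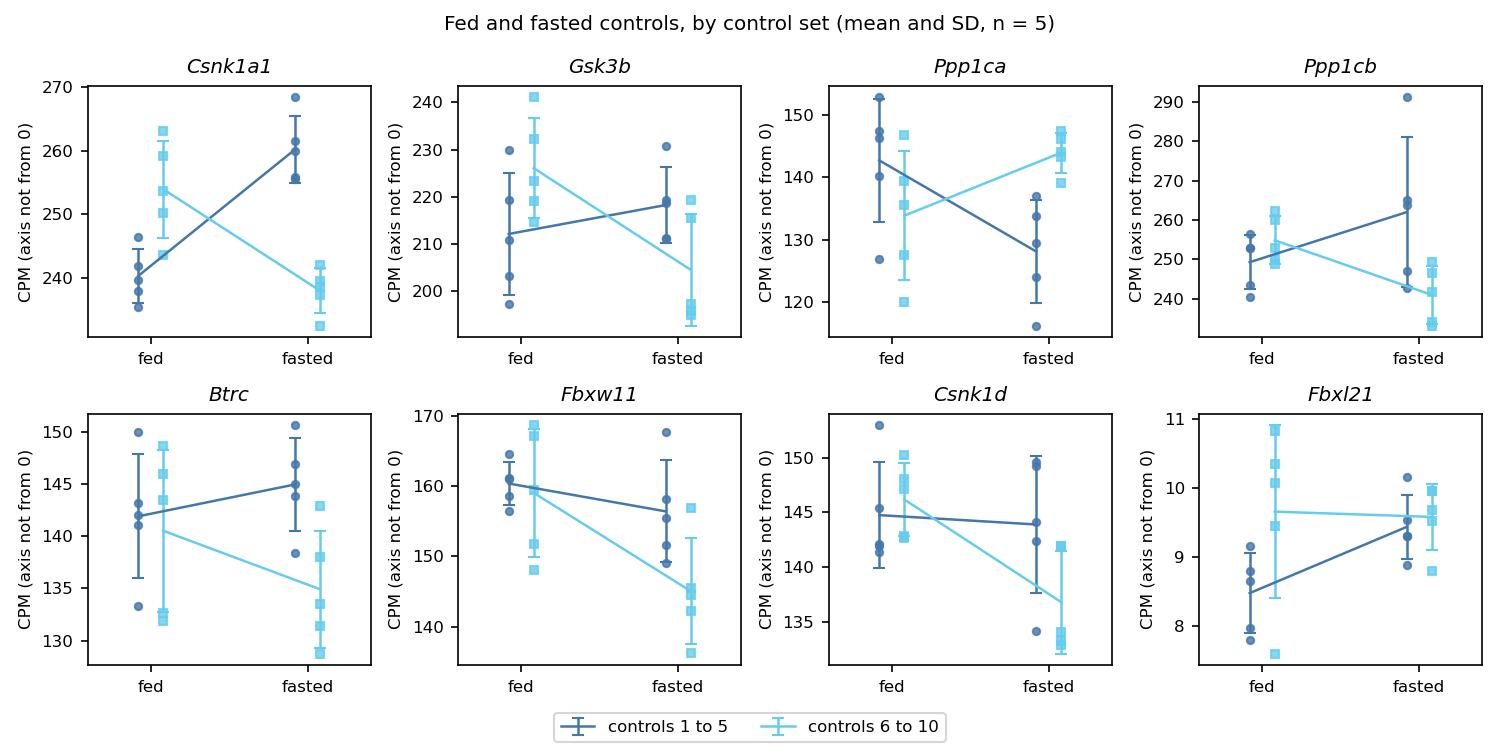
Level in CPM (vertical axis, not starting at 0) of 8 of the genes in fed and fasted controls, split by control set. Points are libraries and lines join means with SD bars (n = 5), crossing for Csnk1a1, whose mean went from 240 to 260 in set 1 to 5 and from 254 to 238 in set 6 to 10.

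Measures of the whole library moved along with these set differences. The mean log2 CPM of 5720 genes with at least 5000 exon bases minus that of 2881 genes with at most 2000, set to 0 over all libraries, was -0.08 in fed and 0.05 in fasted controls of set 1 to 5. In set 6 to 10 it was 0.05 in fed and -0.08 in fasted controls. In fed S662D libraries it was 0.15 to 0.18 with the additional digit and -0.04 to -0.01 without it. In fasted S662D these ranges were -0.09 to 0.15 and -0.09 to -0.07. Summed oligodendrocyte markers (5 of 5 detected) were 8840 CPM in fed and 8012 in fasted controls of set 1 to 5, and 7861 and 8530 in those of set 6 to 10. Choroid plexus markers averaged 213 and 59.5 CPM in set 1 to 5 and 57.1 and 604 in set 6 to 10, with single libraries up to 1533. The part of these measures in the Csnk1a1, Ppp1ca, Gsk3b and Fbxl21 values was not tested.

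Over all 35 libraries, with group means removed, some pairs of the genes varied together: 10 of the 36 pairs had an adjusted p below 0.05 for Pearson's r. A family of 144 relations was computed: 36 between the genes, 9 with the long-minus-short measure and 99 with sums of 11 marker lists, with permutation within groups (100000 resamples, 2-sided, smallest possible p 1e-05) and adjustment over the family. The strongest among the genes were opposite: Gsk3b and Ppp1ca had Pearson r = -0.80 (Spearman rho = -0.79, permutation p 1e-05 for each, adjusted 0.00024), and r = -0.78 without the 2 libraries farthest from the median. Csnk1a1 and Ppp1ca had r = -0.76 (rho = -0.79, permutation p 1e-05 for each, adjusted 0.00024), and r = -0.70 without the 2 farthest. For 3 sets of libraries, fed and fasted together, r was also computed: control set 1 to 5, control set 6 to 10 and S662D. It lay at -0.82, -0.71 and -0.87 for Gsk3b and Ppp1ca, and at -0.81, -0.75 and -0.58 for Csnk1a1 and Ppp1ca. The means removed were over all libraries of a group. Fed-to-fasted shifts particular to a control set, and digit differences in S662D, therefore stay in these r. Permutation also exchanged libraries of both control sets, and S662D libraries with and without the digit. The ligase genes Btrc and Fbxw11 varied together, with r = 0.74 (rho = 0.73, permutation p 1e-05 for each, adjusted 0.00024), r = 0.68 without the 2 farthest, and 0.34, 0.84 and 0.87 within the 3 sets. The lowest of these came from control set 1 to 5. Csnk1d and Csnk1e had r = 0.47 (rho = 0.48, permutation p 0.00949 and 0.00591, adjusted 0.0516 and 0.0388), r = 0.41 without the 2 farthest, and 0.35, 0.64 and 0.72 within the sets.

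Ppp1ca, Gsk3b and Csnk1a1 followed the long-minus-short measure most closely, and Ppp1cb and Fbxl21 less so. Csnk1d, Csnk1e, Btrc and Fbxw11 had adjusted permutation p of 0.4, 0.321, 0.14 and 0.197 for Pearson's r with it. Ppp1ca, whose exons span 1379 bases, had r = -0.87 with it (rho = -0.84, permutation p 1e-05 for each, adjusted 0.00024), r = -0.83 without the 2 farthest libraries, and -0.88, -0.89 and -0.89 within the 3 sets. Gsk3b, with 9831 exon bases, had r = 0.85 (rho = 0.85, permutation p 1e-05 for each, adjusted 0.00024), 0.83 without the 2 farthest, and 0.83, 0.74 and 0.95 within the sets. Csnk1a1, with 10502 exon bases, had r = 0.72 (rho = 0.68, permutation p 2e-05 and 3e-05, adjusted 0.00036 and 0.00048), 0.70 without the 2 farthest, and 0.92, 0.72 and 0.59 within the sets. Csnk1d, with 5022 exon bases, showed r = 0.23 (rho = 0.26, permutation p 0.208 and 0.152). Ppp1cb, with 10913 exon bases, had r = 0.55 (rho = 0.50, permutation p 0.00038 and 0.00391, adjusted 0.00421 and 0.0282). Without the 2 farthest it had 0.51, and 0.62, 0.53 and 0.73 within the sets. Fbxl21, with 4795 exon bases, had r = 0.51 (rho = 0.57, permutation p 0.00603 and 0.00205, adjusted 0.0395 and 0.0155). It had 0.55 without the 2 farthest, and 0.58, 0.34 and 0.81 within the sets. Summed oligodendrocyte markers had r = 0.72 with Ppp1ca (rho = 0.75, permutation p 1e-05 for each), 0.67 without the 2 farthest, and -0.69 with Gsk3b (rho = -0.71, permutation p 4e-05 for each), -0.67 without the 2 farthest. Summed microglia markers had r = 0.46 with Fbxl21 (rho = 0.54, permutation p 0.00319 and 0.00138, adjusted 0.0255 and 0.011). That r was 0.41 without the 2 farthest, and -0.53, 0.32 and 0.87 within the 3 sets. Summed suprachiasmatic nucleus markers had r = -0.57 with Fbxw11 (adjusted permutation p 0.00828), and -0.33, -0.67 and -0.69 within the 3 sets. With Ppp1ca these markers had r = 0.48 (0.0442) and hypothalamus markers 0.52 (0.0294), with adjusted p of 0.0536 and 0.0812 for rho. Csnk1a1 had r = -0.62 with oligodendrocyte markers (0.000432). Csnk1e had -0.53 with pituitary markers (0.0368), which summed to 1.61 to 6.39 CPM. Differences by control set and by digit stay in all these relations, also in the values within sets. These relations are between libraries that share 1 dissection and sequencing protocol, and their source was not tested.

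**Figure D4:**
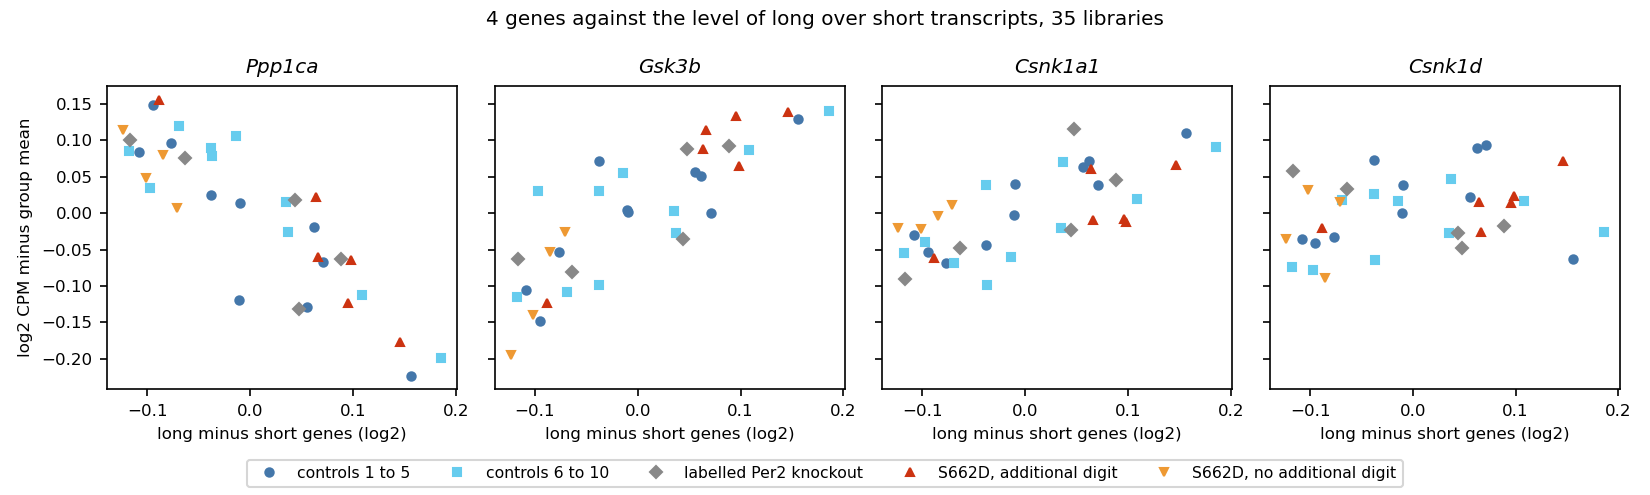
Deviation of log2 CPM from the group mean (vertical axis) of 4 of the genes against the long-minus-short measure (horizontal axis, log2, group means removed), with 1 symbol per library (35 libraries). Ppp1ca falls along the axis (r = -0.87), Gsk3b and Csnk1a1 rise (r = 0.85 and 0.72), and Csnk1d shows no clear slope (r = 0.23).

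Genes with the most similar pattern to each of the 9 were taken as the 3 with the highest Pearson r over the 35 libraries, group means removed, among 15478 genes averaging 1 CPM or more. They are a description. Gsk3b was closest to Akap6 (0.93), Fut9 (0.92) and Pgm2l1 (0.91), and Ppp1ca to Cltb (0.94), Rab5c (0.92) and Atp6v1f (0.91). Csnk1a1 was closest to Dhx36 (0.85), Abce1 (0.85) and Etnk1 (0.84). Btrc was closest to the RNA-editing gene Adar (0.91), then Khdrbs1 (0.84) and the kinesin gene Kif5a (0.82), and Fbxw11 to Tspyl4 (0.81), Kif5b (0.78) and Mfn2 (0.78). Ppp1cb was closest to Rps6ka3 (0.82), Ipo7 (0.81) and Arl5a (0.79), and Fbxl21 to Shc3 (0.82), Necab1 (0.81) and Hs6st3 (0.81). The values were lower for Csnk1d, with Pianp (0.73), Pex5 (0.73) and Clcn7 (0.72), and for Csnk1e, with Scrn1 (0.70), Fto (0.69) and Ap2a2 (0.68). The median r with all genes was between -0.02 and 0.01 for each.

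Other genes of the same pathway were counted by role. Shares of all genes called were 3.88% for fasting in controls and 2.64% for fasting in S662D. For S662D against control they were 4.69% fed and 5.57% fasted. For the labelled knockout they were 0.0277% against controls and 7.34% against fasted S662D. Between control sets they were 10.6% for the fasting responses and 6.02% in fasted controls. With 15, 7 and 10 genes tested, the counts are not a result about the lists. Of 15 other kinase genes, 0 passed edgeR's test on fasting in controls or S662D (1 and 4 at an unadjusted p below 0.05) and 0 in fed S662D against control (4 at an unadjusted p below 0.05), while 1 was higher in fasted S662D: Cdk5r1, the activator of the kinase Cdk5, at 329 ± 26.9 CPM against 280 ± 13.5 (log2 fold change 0.23, SE 0.05, edgeR adjusted p = 0.00498). In the labelled knockout against fasted S662D, 2 kinase genes were lower, Gsk3a (-0.22) and Cdk5r1 (-0.21). Of 7 other phosphatase subunits, 0 passed edgeR's test in any genotype or feeding comparison, with 0 to 2 at an unadjusted p below 0.05. Of 11 other ubiquitin ligase subunits and deubiquitinases, 10 were tested. Usp2, a deubiquitinase known to act on clock proteins, rose on fasting in controls from 41.8 ± 2.73 to 47.3 ± 2.74 CPM (log2 fold change 0.18, SE 0.04, edgeR adjusted p = 0.00936). Skp1a, the adaptor that joins F-box proteins to the ligase, was lower in fed S662D at 302 ± 21.4 CPM against 341 ± 6.79 (log2 fold change -0.17, SE 0.04, edgeR adjusted p = 0.00991), and was higher in the labelled knockout than in fasted S662D (0.15), as was the scaffold gene Cul1 (0.13). With the digit fitted, these S662D differences did not pass: Cdk5r1 gave 0.07 in fasted S662D against control (edgeR adjusted p = 0.731) and Skp1a -0.10 in fed S662D (0.645), and against the labelled knockout Gsk3a, Cdk5r1, Skp1a and Cul1 had edgeR adjusted p of 0.374, 0.761, 0.525 and 0.344. Fitted within control set 1 to 5 and 6 to 10, Usp2 had 0.15 and 0.20 (0.148 and 0.0957). Against controls, the labelled knockout had 0 called genes in these 3 lists (1, 0 and 1 at an unadjusted p below 0.05). Between control sets, the fasting responses of Mapk8, Ppp2r1b, Ube3a and Usp7 differed (-0.22, -0.28, -0.38 and -0.20), and in fasted controls Csnk2a2, Mapk8 and Usp7 were lower and Gsk3a higher in set 6 to 10.

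Of the 5 substrate genes, 1 passed on fasting in controls (3.88% of all genes) and in S662D (2.64%). Between S662D and control mice 3 passed, whether fed (4.69% of all genes) or fasted (5.57%). In the labelled knockout against control 0 passed (0.0277% of all genes), with 1 at an unadjusted p below 0.05 by edgeR. Per1 rose on fasting, from 61.6 ± 3.46 to 79.1 ± 6.95 CPM in controls (log2 fold change 0.36, SE 0.05, edgeR adjusted p = 1.42e-05) and from 55.7 ± 4.40 to 74.2 ± 10.996 in S662D (0.41, SE 0.08, 0.000589). In S662D against control, Per2 was lower by -0.59 fed and -0.55 fasted, Per3 by -0.70 and -0.82, and Cry1 was higher by 0.39 and 0.40 on the log2 scale, while Per1 and Cry2 passed in neither state. With the digit fitted, Per2 (-0.74 and -0.70), Per3 (-0.65 and -0.78) and Cry1 (0.38 and 0.39) passed in both feeding states, the highest edgeR adjusted p being 0.000211. Set beside these, the largest absolute log2 fold change between S662D and control among the 9 enzyme genes was 0.27 fed and 0.16 fasted.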

How the data were processed

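For each of 35 libraries the authors deposited raw fragment counts by gene. Counting used featureCounts 2.0.1, per the file headers, by gene name on GENCODE vM12 exons of mm10, without strand and with every alignment of multi-mapping reads counted, which can add reads of overlapping or near-identical genes. Reads were aligned with STAR 2.7.10b per the submitters' processing notes. The 9 genes and the lists of related genes and markers were chosen with earlier results of these data known. Genes were filtered with filterByExpr (minimum count 10), scaled with TMM, and fitted with edgeR 4.0.16 (R 4.3.3; glmQLFit, robust, glmQLFTest) over all 35 libraries with a mean per group, and with controls split by set for set contrasts. Benjamini-Hochberg adjustment covered 18063 genes, and a gene is called at an adjusted p below 0.05. CPM uses the scaled library size, and per-kilobase levels use exon length. Named genes are the 9, called genes of the related lists, and the 3 genes of most similar pattern. Alternatives included DESeq2 1.42.0, other scaling and filters, subsets of libraries and leaving out each library; scripts were tested on simulated data. No 2 libraries were identical, and counts within a group differed by at least 2.53 in chi-square per degree of freedom. Each library counted as 1 replicate, though these checks cannot show that each came from a separate mouse. Ppp1ca and Ppp1cb are uncertain because their exons overlap other genes. Fbxl21, with the fewest counts, has the largest counting error.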

Additional observations from a re-analysis of the deposited data

Results flagged for a closer look

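In 65 sets of values (a gene or ratio in 1 group) the distance of the most extreme library from the next was set against Dixon's 95% limit, and 4 exceeded it; chance gives about 1 in 20. Csnk1a1 stood at 253 CPM in fed S662D replicate 3, above 239 to 241 in the other 4. Fbxl21 stood at 7.49 CPM in replicate 5 of the labelled knockout, below 8.63 to 9.04 in the others. The log2 Csnk1d to Csnk1e ratio per kilobase was 0.91 in fasted S662D replicate 4, the lowest of its group. The log2 Csnk1a1 to Csnk1d ratio was -0.0643 in fasted control replicate 5, the highest of its group.

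The fasting responses of 2 genes differed between control sets 6 to 10 and 1 to 5 by edgeR's test of that difference. Csnk1a1 differed by -0.21 and Ppp1ca by 0.26 on the log2 scale. The same test called 10.6% of all genes, and it was added after the values had been seen. With each control library left out in turn, Csnk1a1 kept its call in 20 of 20 fits and Ppp1ca in 10 of 20. The sets carry the same labels, and their library numbers form separate ranges.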

How the results depend on the processing

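Counts are of the 9 genes called. In fed S662D against control (main count 1), 0 were called with library size scaling only, with no filter on low counts, with the groups compared fitted alone, with controls 6 to 10, with S662D libraries lacking the additional digit, and with that digit fitted as a covariate, and 2 with controls 1 to 5 and with digit-bearing libraries; leaving out 1 library gave 0 to 2. Over all genes the fits giving 2 called 9.79% and 16.9%, and leaving out 1 library moved the number of all genes called from 847 to between 66 and 1667. In fasted S662D against control (main 0), DESeq2 and no filter gave 1 and the digit-bearing libraries 2. Of all genes tested, these fits called 9.51%, 2.13% and 17.1%. Leaving out 1 library gave 0 to 2. Gsk3b was called without fasted control 5 (4.21% of all genes), and Gsk3b and Fbxw11 without fasted S662D 1 (9.89%). The labelled knockout against S662D (main 0) gave 2 with digit-bearing libraries, in a fit that called 16.2% of all genes. For fasted control sets (main 1), DESeq2 gave 3, library size scaling and no filter 0, and the groups compared alone 2. Of all genes tested, these fits called 12.4%, 5.97%, 1.9% and 12.3%. Leaving out 1 library gave 0 to 2, with 0.499% to 7.31% of all genes. The fasting difference between control sets (main 2) gave 1 with no filter (3.77% of all genes) and 3 with the groups compared alone (17.7%). Leaving out 1 library gave 1 or 2, with 4.51% to 12% of all genes. In the 3 comparisons with a main count above 0, 23 of 66 alternative counts lay within 1.5 times of it; in the 7 with a main count of 0, 165 of 171 were also 0. Of 86 uncalled gene results, 8 passed in some alternative and 43 changed sign in some alternative. Same-numbered libraries of different groups did not vary together (55 pairs, median r = 0.00, range -0.19 to 0.24). With the replicate block, fed S662D against control still called 1 gene, and the 6 other genotype and feeding comparisons 0; the block could not be fitted for control sets, whose numbers do not overlap. Fbxl21, at 138 to 418 counts per library, has the largest counting error.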
